A study of Mus musculus with 3 samples.

Results

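Expression in mouse cells given a vector for ATM was compared with that in the same kind of cells given a short hairpin RNA (shRNA) against Dnmt1, 2 of the 3 arrays of a study on how ATM acts for pRB in the control of DNMT1 protein and DNA methylation. All groups were primary embryonic fibroblasts (MEFs) of strain C57BL/6J, taken at E10.0 and of genotype Rb-/-;ATM-/-, so the cells of every array had lost both genes. They were transduced with an empty vector, a vector expressing DNMT1 shRNA or a vector expressing ATM, kept in puromycin at 4 ug/ml for 3 days and cultured for 4 more days. The labels describe the last group as ATM-reconstituted and the shRNA group as DNMT1-depleted; they do not say whether a group came from 1 embryo, 1 clone or a pool. Each group had 1 array, so no difference given here has a replicate check, and no p-value or standard error can be formed. By the labels the 3 groups were the same kind of cells given different vectors, and the empty-vector array is shown beside the pair. The ATM vector array stood apart from both others in Hox and globin genes and in chromosome-wide levels, as given with those results, and whether it came from the same cells was not tested. A gene entered if a probe was well above background on the ATM vector array, the Dnmt1 shRNA array or both, which left 19525 genes, 13871 of them with a gene symbol.

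DNMT1 copies methyl marks onto the new DNA strand after replication, and UHRF1 guides it there. Loss of the marks is known to wake germline genes, the X-linked Rhox and Xlr families and some imprinted genes, which fibroblasts keep silent by promoter methylation. pRB restrains E2F factors and so entry into S phase. ATM is the kinase that signals DNA double-strand breaks to p53 and to repair. Lowering DNMT1 and returning ATM are thus different ways to act on cells that lack pRB and ATM, and the comparison asks which functions separate the resulting states.

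Signals are Agilent processed intensities scaled so that the 75th percentile of each array lay at a common level, and a log2 ratio is the ATM vector array minus the Dnmt1 shRNA array, so higher and lower refer to the ATM vector array throughout. Where a gene was well above background on only 1 of the pair, its ratio was taken against the detection level of the dim array and is given as "at least". Of 39404 probes, the share well above background was 55.0% with the ATM vector, 59.6% with the shRNA and 55.1% with the empty vector, and no spot was saturated. Genes well above background on both arrays of the pair numbered 17037, a further 2004 were dim on the ATM vector array alone and 476 on the Dnmt1 shRNA array alone. Of the 19525 genes, 1425 (7.30%) were at least 2-fold higher and 1784 (9.14%) at least 2-fold lower, with a median log2 ratio of 0.04. Counting just the 17037 genes seen on both, 1109 (6.51%) were higher by that much and 1111 (6.52%) lower, and their median was 0.095. The counts of each gene list below stand beside these shares. With each array scaled to its median instead, 2100 genes were higher and 1437 lower, so the balance between the directions rests on the scaling. At least 8-fold differences were more numerous on the low side, with 335 genes against 94. Both counts include bounds, and a gene dim on 1 array can only point to the array that saw it. At 2-fold, bounds gave 673 of the lower calls and 316 of the higher ones. An 8-fold count of just the genes seen on both arrays was not made. The ATM vector array was alone on slide 2 while the other pair shared slide 1, so the slide and the ATM vector cannot be told apart. Over the 16578 genes detected on all 3 arrays, absolute log2 differences had a median of 0.37 between the ATM vector and Dnmt1 shRNA arrays, 0.33 between the ATM vector and empty-vector arrays and 0.19 between the slide-mates. Of 1003 such genes at least 2-fold higher in the pair, the empty-vector signal lay nearer the Dnmt1 shRNA signal in 869, and of 1077 lower it did so in 730. Different probes of a gene had a pooled SD of 0.38 (log2) in this ratio, and repeated spots of a probe had a median SD of 0.046 to 0.052 on an array.

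The targeted genes came first. The Dnmt1 probe read 3251 with the ATM vector, 999.5 with the Dnmt1 shRNA and 4576 with the empty vector. Dnmt1 RNA was thus 3.25-fold higher with the ATM vector than with the shRNA, a log2 ratio of 1.70, and the shRNA array was the low one of the 3. Of the Atm probes, 1 was dim on every array and the other read 419.5, 383 and 401 in the same order, a log2 ratio of 0.13, which is smaller than the spread between probes. Rb1, read by 1 probe, had signals of 472, 817 and 504, 1.73-fold lower. Where these probes lie relative to the deleted parts of Atm and Rb1, or to the ATM sequence in the vector, is not known here. They therefore check neither the knockouts nor the vector, and the label of the ATM vector array has no support of its own from the data.

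Other parts of the methylation machinery differed little. Of 33 listed genes, Dnmt1 and Gadd45a passed 2-fold on the high side and 1 gene on the low side, and the median log2 ratio was 0.21. Gadd45a, a stress protein linked to both DNA repair and demethylation, had signals of 11216 with the ATM vector, 1865 with the Dnmt1 shRNA and 1394 with the empty vector, 6.01-fold higher. Tet2, which oxidises methylcytosine, was 2.26-fold lower. The de novo methyltransferase Dnmt3a read 941, 1878 and 1623 in the same order, just short of 2-fold lower, Dnmt3b had a log2 ratio of -0.37, and Uhrf1 stood at 0.31.

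Many germline genes were far brighter with the Dnmt1 shRNA than with the ATM vector. Promoter stretches of a pair of germline genes and an X-linked homeobox gene that stood far apart are shown first, each ending at the base before the start of transcription, with every CpG, the dinucleotide that DNMT1 methylates, in capitals (RefSeq, GRCm38.p6, on the strand of the gene).
Tuba3b: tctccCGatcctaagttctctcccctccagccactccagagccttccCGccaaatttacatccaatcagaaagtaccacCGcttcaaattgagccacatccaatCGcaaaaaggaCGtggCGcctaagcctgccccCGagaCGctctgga
Tex19.1: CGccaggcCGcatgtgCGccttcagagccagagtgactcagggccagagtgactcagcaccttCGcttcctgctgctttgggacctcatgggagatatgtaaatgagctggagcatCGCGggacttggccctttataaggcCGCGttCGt
Rhox5: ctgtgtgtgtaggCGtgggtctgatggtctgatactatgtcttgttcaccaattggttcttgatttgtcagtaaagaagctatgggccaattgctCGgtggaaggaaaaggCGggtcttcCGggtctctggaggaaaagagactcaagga
These stretches lie at chr6:145615813-145615962 (+ strand), chr11:121145993-121146142 (+ strand) and chrX:37754458-37754607 (+ strand) and hold 8, 9 and 4 CpG. Over windows of 300 bases around the start, the germline list had a median of 16 CpG in 60 genes, the Rhox and Xlr list 7 in 24 genes and all tested genes 21 in 11043. Methylation itself was not measured.

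Tuba3b, a testis alpha-tubulin, read 111 with the ATM vector, 9618 with the Dnmt1 shRNA and 85.2 with the empty vector, 86.7-fold lower. Its near-identical neighbour in sequence, Tuba3a, read 5611 with the shRNA and was dim on the other arrays, at least 168-fold lower. Probes of this pair may share signal. Tex19.1, which protects the germline from transposons, read 2469 with the shRNA and was dim elsewhere, at least 73.7-fold lower. Tex101, a germ cell surface protein, showed the same layout with 1529.9 and at least 45.7-fold. Gtsf1, a partner of PIWI proteins in transposon silencing, read 1903 with the shRNA and 39.3 with the empty vector, and was dim with the ATM vector, at least 56.8-fold lower. In each of these genes the Dnmt1 shRNA array was the high one and the other arrays lay together near or below detection.

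Mc3r, a melanocortin receptor on the same list, had the lowest ratio of all genes seen on both arrays, with signals of 65.7, 16997 and 158 on the ATM vector, Dnmt1 shRNA and empty-vector arrays, 259-fold lower. Ica1l read 153, 7229.8 and 146, 47.1-fold lower. Among meiotic chromosome genes, the cohesin subunit Stag3 was at least 14.8-fold lower, the synaptonemal complex genes Syce2 and Syce1 were 5.20-fold and at least 4.12-fold lower, and the meiotic cohesin Rec8 was 2.90-fold lower. Cpxm1 and Tex15, which is needed for meiotic repair, had another layout. Their empty-vector signals of 619 and 212 lay beside the Dnmt1 shRNA signals of 701 and 215, and the ATM vector array alone was dim, so they were at least 20.1-fold and 6.41-fold lower. Of 72 germline genes on the array, 37 were dim on both arrays of the pair, Dazl, Ddx4 and Stra8 among them. A further 20 were seen on the Dnmt1 shRNA array alone, which fixes the direction of their ratio. Of the 15 seen on both arrays, 7 were at least 2-fold lower and 0 higher, and the median was -0.55. The core of the E2F6 site, GCGGGA on either strand, was in the window of 10 of the 17 members at least 2-fold lower that had a window (58.8%), in 38.3% of the whole list and in 37.4% of all tested genes. The E-box, CACGTG, was in 29.4% of those lower members, in 31.7% of the whole list and in 11.2% of tested genes.

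The X-linked reproductive homeobox genes went the same way. Rhox5, the best known of them, read 149 with the ATM vector, 30962 with the Dnmt1 shRNA and 387 with the empty vector, 207-fold lower. Rhox2h and Rhox2e were 57.6-fold and 44.3-fold lower, and Rhox2c at least 80.7-fold, although Rhox2 copies are so alike that probes may read several of them. Xlr, a lymphocyte-regulated gene that founds its family, read 64.0 and 581 and was dim with the empty vector, 9.07-fold lower. Its relatives Xlr3b and Xlr4b were dim on both other arrays, at least 14.8-fold and 10.9-fold lower. Of 28 genes of these families on the array, 9 were dim on both arrays of the pair. A further 14 were seen with the shRNA alone, which fixes the direction of their ratio, and 5 on both. Of those 5, 4 were at least 2-fold lower, and Rhox8 had a log2 ratio of 0.49.

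Testis paralogues of housekeeping genes also stood out from their families. Among 81 cytosolic ribosomal protein genes, 79 were seen on both arrays and none of those was 2-fold different, whereas the testis paralogue Rpl39l and the paralogue Rps4l were seen with the shRNA alone (1384 and 388), at least 41.3-fold and 11.6-fold lower. In the respiratory chain, the testis form of a cytochrome oxidase subunit, Cox6b2, read 185, 999 and 328 on the ATM vector, Dnmt1 shRNA and empty-vector arrays, 5.41-fold lower. The muscle form Cox6a2 read 2454, 422 and 38.2, 5.81-fold higher. The other 79 of 81 oxidative phosphorylation genes were under 2-fold.

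**Figure D1:**
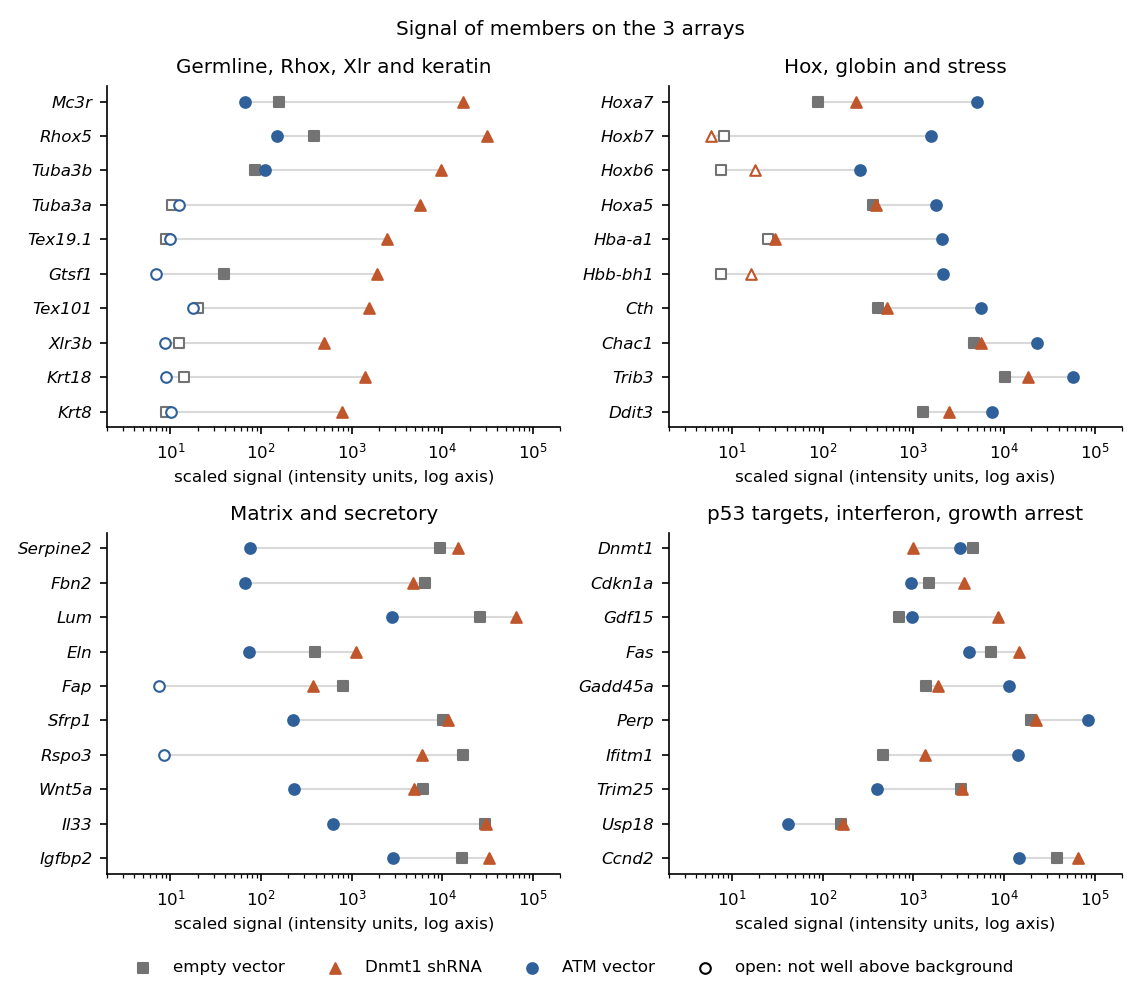
Scaled signal on each array (horizontal log axes, intensity units) for 40 genes in 4 groups; squares are the empty vector, triangles the Dnmt1 shRNA and circles the ATM vector, open where a signal was not well above background, and a grey line joins the arrays of a gene. In the top left group the triangle is far to the right of the other symbols, as for Rhox5 at 30962 against 149 and 387; in the Hox and globin genes the circle is far to the right, as for Hoxa7 at 5052 against 232 and 88.5.

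Imprinted genes, expressed from 1 parental copy, moved in both directions. Of 49 tested, 7 passed 2-fold on the high side and 9 on the low side, and the median was -0.02. The balance was the other way for the 37 seen on both arrays, with 6 higher, 2 lower and a median of 0.08, since 11 members were seen with the shRNA alone and 1 with the ATM vector alone. Zrsr1, a paternally expressed splicing factor gene, read 2071 with the shRNA and 1496 with the empty vector and was dim with the ATM vector, at least 61.8-fold lower. Dlk1, a Notch-like regulator of mesenchymal progenitors, read 892 and 475 and was likewise dim, at least 26.6-fold lower. Mest read 1332 with the ATM vector, 270.1 with the Dnmt1 shRNA and 144 with the empty vector, 4.93-fold higher. Peg10, a retrotransposon-derived gene, and its neighbour Asb4 were 5.10-fold and 6.35-fold higher, the latter by probes that differed in size (log2 ratios of 3.59 and 1.74). In all 5 genes the ATM vector array stood apart and the other arrays lay closer together.

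Several Hox genes, which record a cell's position along the body, stood out on the ATM vector side. Hoxa7 read 5052 with the ATM vector, 232 with the Dnmt1 shRNA and 88.5 with the empty vector, 21.8-fold higher. Hoxb7 read 1574 with the ATM vector and was dim on both other arrays, at least 60.1-fold higher. Hoxa5 read 1786, 389.6 and 359.5, 4.58-fold higher. Hoxb6, Hoxa10 and Hoxa6 were seen with the ATM vector alone, at least 9.92-fold, 6.71-fold and 5.43-fold higher, as was Hoxb13, a gene of the tail end, at least 10.4-fold. Of 39 Hox genes on the array, 20 were dim on both arrays of the pair. A further 9 were seen with the ATM vector alone, which fixes the direction of their ratio. Of the 10 seen on both, 3 passed 2-fold on the high side and 0 on the low side, and the median was 0.65; the anterior genes Hoxb2, Hoxb3 and Hoxb4 had log2 ratios of -0.41, -0.25 and -0.63. The 12 past 2-fold also took in Hoxa4, Hoxb5, Hoxb8, Hoxc6 and Hoxc12, and the 9 listed genes of the D cluster were all dim on both arrays.

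Other positional regulators split. Of 57 tested, 7 passed 2-fold on the high side and 10 on the low side, and the median was -0.03. Irx3, an Iroquois homeobox gene, read 534, 7296 and 7733 on the ATM vector, Dnmt1 shRNA and empty-vector arrays, 13.7-fold lower, and Irx1 was at least 3.14-fold lower. Tbx2, a T-box repressor of limb and heart, was 10.6-fold lower, and Twist2, a regulator of dermal mesenchyme, 7.67-fold lower. Pax3, of dermomyotome and neural crest, read 234 with the ATM vector and 31.4 with the shRNA and was dim with the empty vector, 7.45-fold higher. Lhx9 and Foxf2 were 5.84-fold and 4.54-fold higher. Tlx2, a homeobox gene of enteric neural crest, had the largest bound on the high side: 5508 with the ATM vector and dim on both other arrays, at least 210.3-fold.

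A part of the integrated stress response genes, 18 of 59, was at least 2-fold higher with the ATM vector. In this response, amino acid shortage or unfolded protein slows translation and lets the factor ATF4 be made, which turns on genes for amino acid synthesis and transport and for stress signalling. Promoter stretches of 4 members at least 2-fold higher are shown with the core of the ATF4 response element, TGATGNAA read on either strand, in capitals (RefSeq, GRCm38.p6, strand of the gene).
Asns: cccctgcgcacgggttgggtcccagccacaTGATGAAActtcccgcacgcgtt
Atf3: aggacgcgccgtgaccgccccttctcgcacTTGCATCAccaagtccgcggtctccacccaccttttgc
Chac1: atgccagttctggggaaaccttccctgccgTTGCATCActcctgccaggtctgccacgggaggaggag
Pck2: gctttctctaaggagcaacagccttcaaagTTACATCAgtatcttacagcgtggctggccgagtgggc
They lie at chr6:7693210-7693262 (- strand), chr1:191183406-191183473 (- strand), chr2:119351019-119351086 (+ strand) and chr14:55540133-55540200 (+ strand), upstream of the start. The core was in the 300-base window of 16 of 51 listed genes with a window (31.4%), against 2.90% of tested genes and 3.97% of all promoter windows. Among the 15 members at least 2-fold higher that had a window, 5 held it (33.3%), which is close to the share in the list.

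All 59 members tested were seen on both arrays, and 0 passed 2-fold on the low side. The median log2 ratio was 0.60 against 0.095 for all genes seen on both. Housekeeping and ribosomal protein genes, which are bright, had medians of 0.35 and 0.46 under the same scaling. Across the alternative settings the median of the stress list ran from 0.459 to 0.796. Cth, which makes cysteine from cystathionine, read 5582 with the ATM vector, 512 with the Dnmt1 shRNA and 412 with the empty vector, 10.9-fold higher. The stress regulators followed: Trib3, a pseudokinase that feeds back on ATF4, read 58269, 18448 and 10360.2, 3.16-fold higher. Ddit3, which encodes the pro-apoptotic factor CHOP, read 7381, 2503 and 1287, 2.95-fold higher. For Trib3 and Ddit3 the Dnmt1 shRNA array lay between the others. Chac1, which degrades glutathione, was 4.08-fold higher, Ppp1r15a, the phosphatase subunit that ends the response, 2.74-fold, and Atf5 and Atf3 were 2.69-fold and 2.72-fold higher.

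Serine, glycine and folate genes took part. Psph, the last step of serine synthesis, was 3.61-fold higher, the mitochondrial folate enzymes Aldh1l2, Mthfd2 and Shmt2 were 4.51-fold, 2.89-fold and 2.64-fold higher, and the asparagine synthetase Asns was 2.27-fold higher. Atf4 itself had a log2 ratio of 0.92. The chaperone arm of the unfolded protein response did not share the size: Hspa5, the main chaperone of the endoplasmic reticulum, stood at 0.14, Dnajb9 at 0.098, Calr at -0.20 and Pdia4 at -0.11. Slc7a11, the cystine carrier, stood at -0.18, and Cbs, the enzyme before Cth in the same path, at -0.78.

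Targets of p53 leaned the other way. Of 57 tested, 2 passed 2-fold on the high side and 17 on the low side, and the median was -0.37. Cdkn1a, which encodes the cyclin-dependent kinase inhibitor p21, had mean signals over its 2 probes of 938 with the ATM vector, 3636 with the Dnmt1 shRNA and 1490.3 with the empty vector, 3.88-fold lower, with probe ratios of -2.44 and -1.47. Gdf15, a stress-induced cytokine, read 961, 8621 and 696, 8.97-fold lower. In both genes the Dnmt1 shRNA array was the high one. Pmaip1, which encodes the death protein NOXA, was 5.31-fold lower, the death receptor Fas 3.57-fold, Ddit4l, an inhibitor of mTORC1 signalling, 11.3-fold, and Btg2, an antiproliferative gene, 2.93-fold lower. Tnfrsf18 was dim with the ATM vector and at least 89.5-fold lower. The 2 on the high side were Gadd45a and Perp, a desmosome protein of p53-driven death, which read 84983, 22423 and 19869.8, 3.79-fold higher. Core targets such as Mdm2 (0.061), Bax (0.36), Ccng1 (-0.47) and Bbc3 (-0.15) had log2 ratios within 2-fold.

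Of 64 replication and S-phase genes 0 were 2-fold different, with ratios from -0.52 to 0.87, and of 75 mitotic genes 0 were, with ratios from -0.97 to 0.97. Of 80 DNA damage and repair genes, 1 passed: Mgmt, which removes methyl groups from guanine, read 5385, 14790.0 and 6837 on the ATM vector, Dnmt1 shRNA and empty-vector arrays, 2.75-fold lower. Among 35 cyclins, kinase inhibitors, pocket proteins and E2Fs, Ccnd2, a D-type cyclin, read 14483, 64708 and 38024, 4.47-fold lower, Mybl1 was 2.16-fold lower, Cdkn1a was the third lower member, and E2f2 was 2.45-fold higher. The pocket proteins Rbl1 and Rbl2 stood at -0.66 and -0.64, and Cdkn2a, which encodes inhibitors upstream of pRB and p53, at -0.71.

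Interferon-stimulated genes were lower more often than higher with the ATM vector. Promoter stretches of 4 lower members are shown with the core of the interferon-stimulated response element (ISRE), GAAA, any 2 bases and GAAA again on either strand, in capitals; copies can overlap, as in Isg15 (RefSeq, GRCm38.p6, strand of the gene).
Ifit1: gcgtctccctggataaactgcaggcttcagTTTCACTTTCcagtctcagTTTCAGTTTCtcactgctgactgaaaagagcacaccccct
Isg15: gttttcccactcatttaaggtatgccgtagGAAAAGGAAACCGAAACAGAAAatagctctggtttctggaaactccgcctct
Oas1a: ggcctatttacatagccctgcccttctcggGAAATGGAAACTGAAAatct
Trim30a: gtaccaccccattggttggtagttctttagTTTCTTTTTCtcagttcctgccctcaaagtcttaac
They lie at chr19:34640755-34640843 (+ strand), chr4:156200845-156200926 (- strand), chr5:120907526-120907575 (- strand) and chr7:104465194-104465259 (- strand). The core was in the window of 26 of 56 listed genes with one (46.4%) and of 9 of the 13 members at least 2-fold lower (69.2%), against 3.59% of tested genes and 3.44% of all promoter windows.

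Of 62 tested, 5 passed 2-fold on the high side and 15 on the low side, and the median was -0.23. Among sensors and their regulators, Trim25, a ubiquitin ligase for the RNA sensor RIG-I, read 402 with the ATM vector, 3461 with the Dnmt1 shRNA and 3366 with the empty vector, 8.62-fold lower. The RNA sensors Ifih1 (MDA5) and Dhx58 (LGP2) were 3.43-fold and 4.02-fold lower, and the transcription factor Irf5 was 5.12-fold lower. For Trim25 and Ifih1 the empty-vector signal lay beside that of the shRNA. Among effectors, Ifit1, which binds foreign RNA caps, read 186, 576 and 854, 3.09-fold lower, and Ifit3, the ubiquitin-like Isg15 and its protease Usp18 were 2.82-fold, 2.52-fold and 4.04-fold lower. Oas1a, which makes the second messenger for RNase L, was dim with the ATM vector and at least 3.43-fold lower. On the high side, Ifitm1, a membrane protein that blocks viral entry, read 14414, 1360.4 and 461, 10.6-fold higher, and Ifi27l2a was 3.33-fold higher. Stat2 (0.30), Bst2 (0.73) and Ifitm3 (0.23) had log2 ratios within 2-fold, so the list did not move as a block. In antigen presentation 2 of 30 were higher and 3 lower; Psmb8, an immunoproteasome subunit, was 7.38-fold lower and the peptide carrier Tap1 3.19-fold lower, while the class I heavy chain H2-D1 stood at 0.75.

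**Figure D2:**
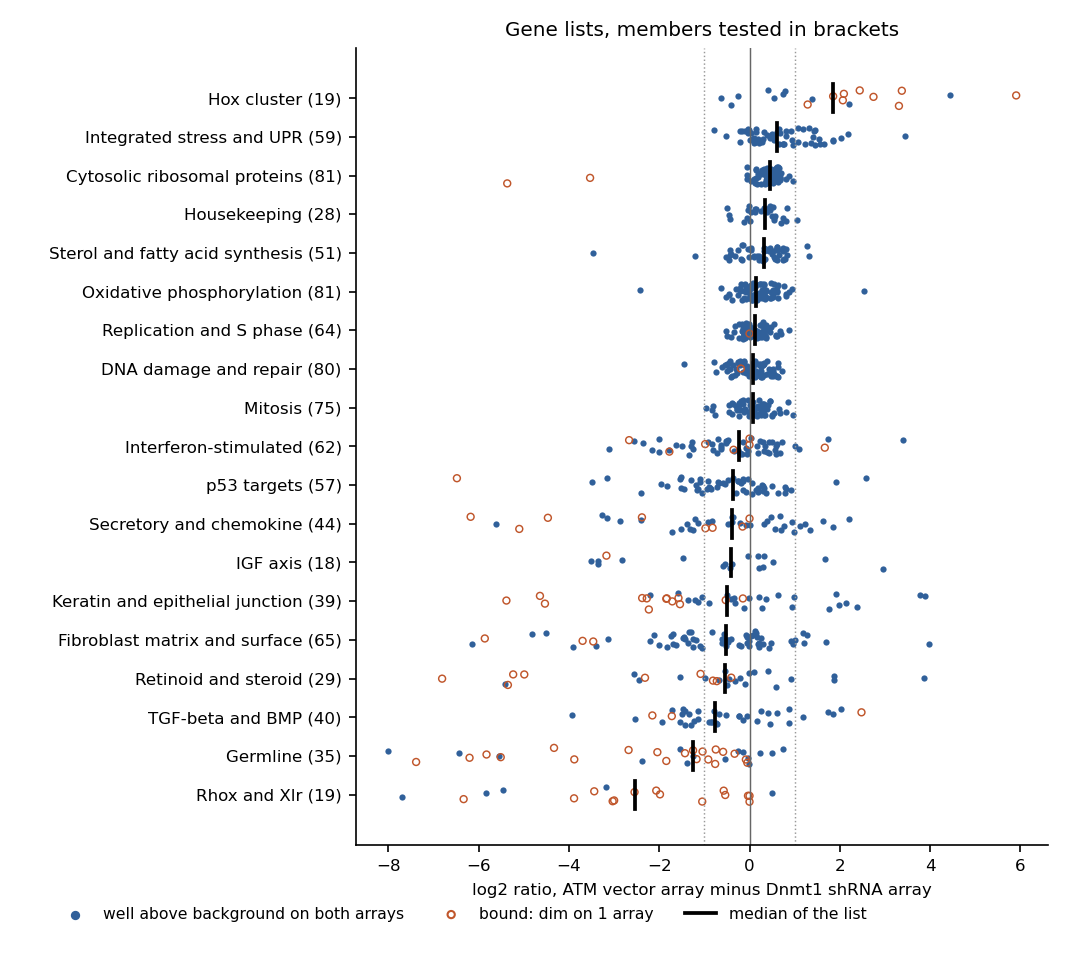
Log2 ratio of the ATM vector array to the Dnmt1 shRNA array for the tested members of 19 gene lists, ordered by list median (black bar); filled points were well above background on both arrays, open points are bounds for members dim on 1 array, and dotted lines mark 2-fold. Hox and stress response genes lie to the right, germline, Rhox and Xlr, TGF-beta and BMP genes to the left, and replication and mitosis genes lie between the dotted lines. The medians include bounds. For members seen on both arrays alone, the Hox median was 0.65 rather than 1.85 and the germline median -0.55 rather than -1.25.

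Fibroblast identity was checked on collagen and filament genes. Col1a1, the main chain of type I collagen, read 115581 with the ATM vector, 108538 with the Dnmt1 shRNA and 98967 with the empty vector, a log2 ratio of 0.091. Vim, the mesenchymal filament, stood at 0.21 and the matrix protein Fn1 at 0.20. These defining genes were bright on every array. Surface markers differed more: Thy1 read 45.4 and 1274 on the pair and was dim with the empty vector, 28.0-fold lower, Pdgfra was 2.72-fold lower, and Fap, a protease of activated fibroblasts, read 369 with the shRNA, 797 with the empty vector and was dim with the ATM vector, a log2 ratio of -3.46 or below.

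Among 65 tested matrix and surface genes of fibroblasts, 6 passed 2-fold on the high side and 28 on the low side, and the median was -0.53. Of the elastic fibre genes, Fbn2, a fibrillin, read 67.2, 4752 and 6389 on the ATM vector, Dnmt1 shRNA and empty-vector arrays by the probe seen on both, 70.7-fold lower, and Eln, elastin itself, read 73.3, 1102 and 392, 15.0-fold lower. The related fibrillin Fbn1 stood at 0.13. Of the small leucine-rich proteoglycans, which space collagen fibrils, Lum read 2804, 64282 and 25865, 22.9-fold lower, Fmod was 10.5-fold, Dcn 3.54-fold and Epyc, one of the 12 lowest genes seen on both arrays, 82.6-fold lower. In Fbn2 and Epyc the empty vector stood by the shRNA; in Lum it lay between. Cthrc1, a secreted collagen-repeat protein, was dim with the ATM vector and at least 58.3-fold lower, and Has2, a hyaluronan synthase, was 4.04-fold lower. Those higher included Pi16, a surface protein of adventitial fibroblasts, at 15.8-fold, and Postn at 2.30-fold.

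Of 31 collagens, 1 passed 2-fold on the high side and 8 on the low side, and the median was -0.02; of the 24 seen on both arrays 1 was higher and 5 lower. Col14a1, which sits on fibril surfaces, was lower by 2 probes that disagreed in size (log2 ratios of -7.20 and -2.04), and the cartilage collagen Col2a1 was 3.97-fold lower. The fibrillar Col1a2 and Col3a1 stood at 0.69 and 0.73. Among matrix proteases and their inhibitors 0 of 13 were higher and 4 lower, and the stromelysin Mmp3 was at least 7.54-fold lower. Serine protease inhibitors split, with 4 of 19 higher and 5 lower. Serpine2, which blocks thrombin and urokinase, read 76.0, 14784 and 9417, 195-fold lower. Serpinb2 read 476 with the ATM vector and was dim on the others, at least 18.2-fold higher.

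Adhesion receptors followed the matrix in part, with 6 of 48 higher and 17 lower. Alcam, an immunoglobulin-type adhesion molecule, was 12.6-fold lower, Cdh11, the mesenchymal cadherin, read 295, 2382 and 1891, 8.07-fold lower, and the integrin chains Itga3 and Itga11, which bind laminin and collagen, were 7.86-fold and 6.94-fold lower. Itga7, the laminin receptor of muscle, was 7.26-fold higher, the heparan sulfate proteoglycan Gpc1 6.10-fold and the leukocyte chain Itgb7 19.3-fold higher. Embigin (Emb), an adhesion molecule that partners lactate carriers, gave the largest bound in the data: 30507 with the shRNA, 24637 with the empty vector and not well above background with the ATM vector, at least 911-fold lower. Ezr, which ties the membrane to actin, read 58.3, 7454 and 5718, 128-fold lower.

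Secreted signals were also more often lower than higher. Of 40 TGF-beta and BMP genes, 5 passed 2-fold on the high side and 16 on the low side, and the median was -0.77. Among ligands, Gdf5, of joints and tendon, was 15.3-fold lower by the probe seen on both arrays, and Tgfb2, Tgfb3, Bmp4 and Inhba were 2.55-fold, 2.71-fold, 2.21-fold and 2.22-fold lower. Among direct targets and feedback inhibitors, Id2 read 3507 with the ATM vector, 20407 with the Dnmt1 shRNA and 22190.4 with the empty vector, 5.82-fold lower, Id1 was 2.47-fold, Smad7 2.81-fold and Smad6 2.79-fold lower. Antagonists went both ways: Fst, which traps activin, was 2.92-fold lower, whereas the BMP antagonist Grem1 read 2829, 846 and 316, 3.34-fold higher, and Nog was 2.26-fold higher. Tgfbi, a matrix protein named for its response to TGF-beta, was 3.62-fold higher. The receptors Tgfbr1 (-0.14) and Tgfbr2 (-0.23) were near 0 on the log2 scale.

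In the Wnt pathway 1 of 24 tested was higher and 7 lower, and of the 19 seen on both arrays 1 and 4. Rspo3, a secreted amplifier of Wnt signals, read 5999 with the shRNA and 16692 with the empty vector and was dim with the ATM vector, at least 179-fold lower. Sfrp1, a decoy that binds Wnt, read 226, 11374 and 10147 on the ATM vector, Dnmt1 shRNA and empty-vector arrays, 50.4-fold lower, and the ligand Wnt5a read 231, 4881 and 6103, 21.1-fold lower. In all 3 the ATM vector array was the low one. The nuclear factor Tcf7 was 4.16-fold higher, and Axin2, a common target of the pathway, was dim on the ATM vector and empty-vector arrays.

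Insulin-like growth factor genes were 2 of 18 higher and 6 lower. Igf1 had a mean log2 ratio of -3.36 over 3 probes, which gave -2.81, -4.28 and -2.98, and the binding proteins Igfbp2 and Igfbp6 were 11.5-fold and 7.14-fold lower, while Igfbp5 read 10674, 1374 and 1564, 7.77-fold higher. For Igfbp6 the empty-vector signal of 618 lay beside the 901 of the ATM vector array rather than the 6432 of the Dnmt1 shRNA array. Of 43 genes of the FGF, PDGF, VEGF and HGF families, 6 were higher and 14 lower. Ptn, pleiotrophin, was at least 46.8-fold lower, Angpt2, a vessel-destabilising ligand, 7.29-fold lower, and Pgf, placental growth factor, 5.48-fold higher. In the EGF family 3 of 13 were higher and 3 lower; the receptor Egfr was 4.75-fold lower and its negative regulator Lrig1 3.13-fold higher.

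Of 44 chemokines and secretory genes linked to senescence, 6 were higher and 16 lower, and the median was -0.38. Il33, an alarmin cytokine, read 623, 30439.9 and 29194 on the ATM vector, Dnmt1 shRNA and empty-vector arrays, 48.8-fold lower, and Il1rn, the natural blocker of the IL-1 receptor, was dim with the ATM vector and at least 72.5-fold lower. The neutrophil chemokine Cxcl5 was at least 34.4-fold lower and the stromal chemokine Cxcl12 3.29-fold lower. Ptgs2, which encodes cyclooxygenase-2, read 3501, 973 and 2699.8, 3.60-fold higher, so here the shRNA array was the low one. The classic secretory genes Il6 and Ccl2 stood at 0.93 and 0.78.

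Epithelial genes differed in both directions, also among genes of 1 kind. The keratins of simple epithelia, Krt18 and Krt8, read 1402 and 776 with the shRNA and were dim on the other arrays, at least 41.8-fold and 23.2-fold lower. The stratified keratin Krt14 read 4607, 309 and 73.0 on the ATM vector, Dnmt1 shRNA and empty-vector arrays, 14.9-fold higher, and the basement membrane chain Lamb3 read 978, 71.5 and 67.3, 13.7-fold higher. Pkp1, a desmosome plaque protein, was 4.42-fold and Msln, mesothelin, 5.22-fold higher. The uroplakin Upk3b and desmoplakin (Dsp) were at least 25.0-fold and 4.85-fold lower. Of 58 listed, 19 were dim on both arrays of the pair, Epcam and Ocln among them, and 13 were seen with the shRNA alone. Of the 26 seen on both, 7 were higher and 6 lower. Slurp1 and Lypd2, small proteins of the Ly6 family, were among the 12 highest genes seen on both arrays at 29.7-fold and 53.4-fold.

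Of 29 tested retinoid and steroid genes 3 were higher and 10 lower, 6 of the latter by bounds; of the 20 seen on both arrays 3 were higher and 4 lower. The retinaldehyde dehydrogenases, which make retinoic acid, were low with the ATM vector: Aldh1a1 read 204, 8765 and 1579 on the ATM vector, Dnmt1 shRNA and empty-vector arrays, 42.9-fold lower, and Aldh1a3 was dim there and at least 112-fold lower. The carrier Rbp4 was at least 37.7-fold lower, its receptor Stra6 5.93-fold, the reductase Dhrs3 at least 31.8-fold and the nuclear receptor Rarb at least 4.98-fold lower. Crabp2, which hands retinoic acid to its receptor, was 3.68-fold higher.

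Metabolic lists differed by single genes more than as groups. Of 65 glutathione and oxidative stress genes, 6 were higher and 10 lower; the secreted peroxidase Gpx3 was dim with the ATM vector and at least 65.5-fold lower, and the transferases Gstk1 and Gstt1 were 10.1-fold lower and 3.27-fold higher. Of 44 glycolysis and hypoxia genes 5 were higher and 4 lower, with Car12, a carbonic anhydrase, at least 15.2-fold lower and the lactate exporter Slc16a3 6.03-fold lower. Of 51 sterol and fatty acid synthesis genes 2 were higher and 2 lower, and the median was 0.33; the desaturase Scd1 was 2.49-fold higher and the cholesterol exporter Abca1 read 295, 3249 and 2898, a log2 ratio of -3.46. Among the 28 housekeeping genes Tfrc alone reached 2-fold, at 2.06-fold higher, by 3 probes that disagreed (log2 ratios of 0.25, 0.79 and 2.09). The housekeeping genes had a median of 0.35 and the ribosomal list had a median of 0.46, both above the 0.04 of all genes. Bright lists of this kind carry the scaling: after quantile normalization the ribosomal median was 0.04 and the housekeeping median 0.04.

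Of 38 smooth muscle genes, 7 passed 2-fold on the high side and 3 on the low side. Their median of 0.19 became 0.004 with quantile normalization and -0.008 with cyclic loess. Actg2, enteric smooth muscle actin, read 69344, 19174 and 2736 on the ATM vector, Dnmt1 shRNA and empty-vector arrays, 3.62-fold higher, with the empty vector the lowest. Fhl1, a LIM protein of muscle, and Cspg4, of pericytes, were 5.42-fold and 4.50-fold higher. The common actin Acta2 stood at 0.30 and Tagln at -0.31, and Pgm5 was 30.1-fold lower. Of 50 striated muscle genes 25 were dim on both arrays, Myod1 and Myog among them, and 16 were seen on both. Among those 16, 4 were higher, such as the troponins Tnni2 and Tnnt2 at 5.27-fold and 2.24-fold. The 1 lower was also a troponin, Tnnt1, at 2.15-fold.

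Markers of cells other than fibroblasts were given for the same arrays. Globins, the oxygen carriers of red cells, were high with the ATM vector alone: Hba-a1 read 2072 and 29.6 on the pair and was dim with the empty vector, 70.1-fold higher, Hba-a2 was 19.7-fold higher, and the embryonic Hbb-bh1 was dim on both others and at least 80.3-fold higher. Probes of Hba-a1 and Hba-a2 may share signal. Other red cell genes did not accompany them, since Alas2, Gata1, Slc4a1 and the adult beta-globin Hbb-bt were dim on both arrays and Klf1 was not well above background with the ATM vector. Of 20 erythroid genes on the array 6 were well above background with the ATM vector, 7 with the shRNA and 4 with the empty vector, and their summed signal of tested members was 52667, 48287 and 50337, of which Gypc, a membrane glycoprotein that many cells make, gave 41659, 46129.7 and 48227.

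Of 29 blood and macrophage markers, 9 were well above background with the ATM vector, 10 with the shRNA and 10 with the empty vector, with summed signals of 11441, 19883 and 11794. Of 11 tested, 2 were higher and 5 lower. Ptprc, Adgre1, Tyrobp and Aif1 were dim on both arrays of the pair. Fcer1g, Csf1r and Cd14 were 3.40-fold, 2.62-fold and 2.48-fold lower and Cd53 at least 2.51-fold, while Coro1a was 2.45-fold higher and Lyz1 at least 2.42-fold. The 3 probes of Csf1r disagreed (log2 ratios of -2.45, -0.10 and -1.62). Chil3, a chitinase-like protein, made most of the difference between the sums of the pair, with 169, 6545 and 146. Of 27 endothelial markers 11, 15 and 12 were above background in the same order, with sums of 19190.0, 19966 and 19154; Cdh5, Tek and Tie1 were dim. Of 15 tested, 5 were lower, with Fli1 at least 15.0-fold, Mmrn2 6.67-fold, Flt1 3.57-fold, Eng 3.27-fold and Vwf 2.17-fold, and Apln alone was higher, at 9.11-fold. Of 34 neural markers 17, 18 and 17 were above background, with sums of 49093, 46170.0 and 36712, and Sox2, Gfap and Dcx were dim. Among the 20 tested, 4 were higher: Syn1 at 5.84-fold, Tubb3 at 2.03-fold, Pax6 at least 3.31-fold and Prph at least 2.02-fold. Mbp alone was lower, by at least 7.41-fold. Fat, cartilage and bone markers numbered 17, 20 and 17 of 39, with sums of 71268, 99415 and 98420.0, and Adipoq, Fabp4 and Ibsp were dim. Among the 21 tested, 3 were higher and 7 lower. Pparg, the regulator of fat cells, was 4.44-fold lower, whereas Plin2 of the same list was 2.82-fold higher. Of 32 pluripotency genes on the array 18 were tested, 16 of them seen on both arrays of the pair. The 3 higher were Tdgf1 (3.58-fold), L1td1 (2.69-fold) and Lin28b (at least 3.83-fold). The 2 lower were Klf5 (4.07-fold) and Tfcp2l1 (at least 2.25-fold). Nanog read 479, 265 and 299 on the ATM vector, Dnmt1 shRNA and empty-vector arrays, while Pou5f1 and Sox2 were dim. Whether a mixture of cells had a part in the matrix, epithelial, Hox or globin differences was not tested, and in bulk RNA a change in the share of a cell type and a change within cells cannot be told apart.

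The Y-linked genes Ddx3y and Eif2s3y were seen on all 3 arrays, at 2026 and 4807 with the ATM vector, 3331 and 8445 with the shRNA and 3876 and 8773 with the empty vector, and Xist was dim on the pair. Of 22 clustered protocadherins 4 were higher and 4 lower. Of the 15 seen on both arrays 1 was higher and 4 lower, and the median was -0.66. The members with the largest differences lie on chromosome 18, where all genes seen on both arrays had a median of -0.32. Of 42 immediate early genes 8 were higher and 6 lower, among them the phosphatase Dusp1 at 3.01-fold higher and Fos at 2.15-fold lower. Of 45 axon guidance genes, 6 were higher and 10 lower; the ephrin Efna5 was 26.8-fold lower, the guidance cue Slit3 was at least 23.9-fold lower and the netrin Ntn1 was 4.55-fold higher.

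Among the remaining genes with the lowest ratios, Fxyd6, Slc43a3, Svep1, Prl2c1 and Plxdc2 had an empty-vector signal within 2-fold of that of the shRNA. In Npr3, Penk and Ecrg4 the shRNA signal was above the empty-vector signal by log2 differences of 1.15, 1.05 and 2.03. Npr3, the clearance receptor of natriuretic peptides, read 56.0, 7896 and 3568 on the ATM vector, Dnmt1 shRNA and empty-vector arrays, 141-fold lower. Fxyd6, a regulator of the sodium pump, and the carrier Slc43a3 were 192-fold and 149-fold lower, and the matrix protein Svep1 and the placental hormone relative Prl2c1 93.6-fold and 117-fold lower. Plxdc2, Penk, which encodes the enkephalin precursor, and Ecrg4 were dim with the ATM vector and at least 356-fold, 228-fold and 200.3-fold lower. On the high side, Heph, a copper ferroxidase, was 29.9-fold higher, the procollagen protease enhancer Pcolce2 read 6663, 289 and 432, 23.1-fold higher, and Havcr2, an immune checkpoint receptor, was 45.8-fold higher. Efhd1, Enpp3 and Ngef were 22.6-fold, 20.6-fold and 20.3-fold higher, and Ceacam2, Olfr1179 and Epha8 at least 55.6-fold, 41.2-fold and 36.6-fold.

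The ratio also differed by chromosome. Genes seen on both arrays had a median log2 ratio of 0.49 on chromosome 10 (601 genes, 78 at least 2-fold higher and 25 lower), 0.25 on the X, 0.22 on chromosome 19 and 0.21 on chromosome 17, and of -0.32 on chromosome 18 (307 genes, 14 higher and 38 lower). Other autosomes had medians between -0.15 and 0.16. Against the empty vector, the ATM vector array had medians of 0.44 on chromosome 10 and -0.33 on chromosome 18, and the Dnmt1 shRNA array of -0.06 and -0.03; these comparisons share the empty-vector array. With each chromosome's median subtracted, the calls were 1139 on the high side and 1983 on the low side. What part the chromosome shift had in the named genes was not tested beyond that subtraction.

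**Figure D3:**
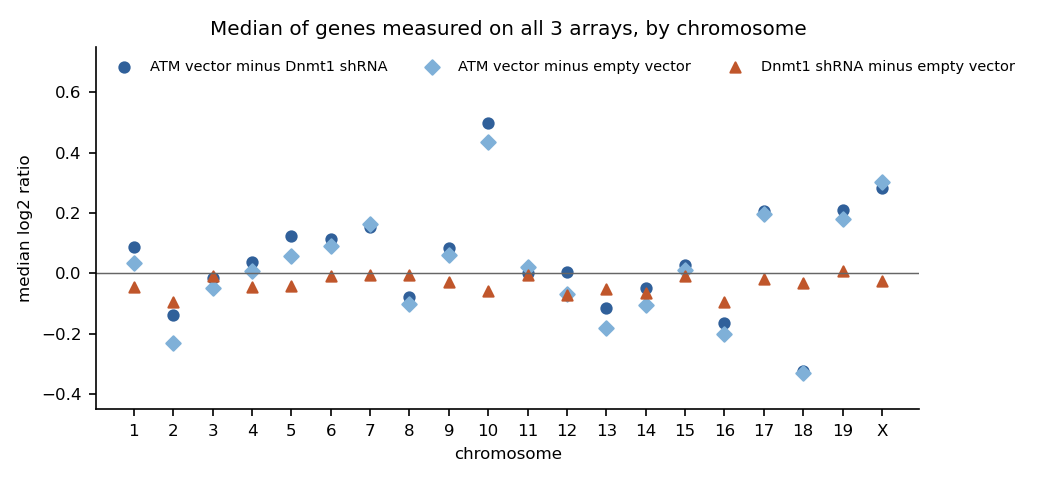
Median log2 ratio by chromosome (horizontal axis) over genes well above background on all 3 arrays; dark circles are the ATM vector minus the Dnmt1 shRNA, light diamonds the ATM vector minus the empty vector, and triangles the Dnmt1 shRNA minus the empty vector. Both series that contain the ATM vector array reach their highest values on chromosome 10 (0.50 and 0.44) and their lowest on chromosome 18 (-0.32 and -0.33), whereas the triangles lie between -0.096 and 0.006 on the chromosomes drawn.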

How the data were processed

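RNA from 3 samples, 1 per group, was hybridised to 1-colour (Cy3) Agilent mouse arrays. The authors deposited scanner output. Per the submitters' processing notes it was made with Agilent's Feature Extraction software, version 10.7.3.1. Per the file headers the processed signal is a linear intensity after background subtraction, and they record no step that scales arrays to each other. The deposited series matrix holds the same intensity values, within 0.495% of the scanner values, with column medians of 75.2, 80.4 and 68.6 (empty vector, Dnmt1 shRNA, ATM vector), so it is linear, uncentred and not a ratio. Of 44397 spots per array, the 43020 that were not controls were used, less flagged outliers. The log2 intensity was averaged per probe, each array's 75th percentile was taken off, and the ratio of a gene averages the probes that cleared background on both. For a gene with none, the brighter array was set against the higher of the dim array's lowest signal well above background and the gene's own signal there. The lowest such signals were 37.8, 25.05 and 32.66 in the same order before scaling. Precision is limited by having 1 array per group.

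Probes took symbols by unversioned accession from a RefSeq table of GRCm38.p6 (26412 of 39429 matched 1 symbol and 13017 none; older symbols in the lists were updated). The array design names another build, so coordinates are those of the RefSeq promoters only. The genes and lists were chosen with earlier results of these data known. Named are Dnmt1, Atm and Rb1, and the 12 highest and 12 lowest ratios seen on both arrays with every counted probe. Also named are the 6 largest bounds each way and up to 6 members of each list, those with the largest ratios in either direction. Other members are given where their role is described, and were not followed singly under the alternative settings. A call is at least 2-fold. The list of replication-dependent histones matched 1 symbol and was not evaluated; complement, hedgehog and lipid transport lists were added after the data were seen. The steps were tested on simulated data. Alternatives were other scalings, normexp (limma 3.58.1 in R 4.3.3), filters, probe summaries, chromosome centring and a 3-fold threshold. Python 3.11.15 with numpy 2.4.6 and pandas 2.3.3 was used.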

Additional observations from a re-analysis of the deposited data

How the results depend on the processing

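Single genes were followed across the settings for 305 named genes only. These were the targets, the extreme ratios and bounds, and the members of each list with the largest ratios. Other described members, such as Tex101, Mest, Hoxa5 and Ddit3, were not in this set. Of the 305, 255 differed by at least 2-fold. Of those, 222 did so under each of the 12 alternative settings that gave them a value, and 0 of the 255 changed direction. Most were chosen for large ratios on the same arrays, which favours such an outcome, so these counts do not test how stable the other genes are. Of 27 list medians at least 0.25 from 0 on the log2 scale, 3 changed sign: epithelial genes, from -0.50 to 0.11 with genes well above background on both arrays only and to 0.045 without a filter, Wnt genes to 0.017 and complement to 0.177, both without a filter. The 1425 genes higher became 839 with normexp, 2223 without a filter and 571 at 3-fold; the 1784 genes lower became 1111 with genes well above background on both arrays, 2802 without a filter and 983 at 3-fold. Without a filter 32524 genes were tested, and with both arrays required 17037. Scaling to the array median moved the median of all genes from 0.04 to 0.234, and dropping the filter to 0.286, so 59.4% of called genes were then higher with median scaling against 44.4%. Normexp was run on the median signal, since the scanner files used hold no mean signal column. No paired analysis was possible because each group has 1 array, and for the same reason no array could be left out. Signal near background limits 2480 genes to bounds, slide and ATM vector cannot be told apart, and the differences hold for these arrays only.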

Other observations

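The 3 gene lists described here were chosen after values had been seen, so their counts describe and support nothing. Complement, the cascade of serum proteins that tags cells for the immune system and that fibroblasts also make, was lower in 9 of 18 tested genes and higher in 3 when the ATM vector array was set against the Dnmt1 shRNA array, with a median log2 ratio of -1.07 that turned to 0.177 over all probes without a filter. Of the classical pathway, C4b read 73.8 with the ATM vector, 2087 with the shRNA and 498 with the empty vector, 28.3-fold lower, and the proteases C1s1 and C1ra were 7.01-fold and 3.04-fold lower. Serping1, which inhibits those proteases, went the other way at 7.28-fold higher. The central component C3 was 5.17-fold lower and clusterin (Clu), a chaperone that blocks the lytic end of the cascade, 47.3-fold lower.

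Hedgehog genes differed by member. Gli1, the transcription factor that serves as a common readout of the pathway, had signals of 3468, 153 and 262 on the ATM vector, Dnmt1 shRNA and empty-vector arrays, 22.7-fold higher. Gli2 read 47.5, 445 and 544, 9.38-fold lower, and the co-receptor Boc was 4.13-fold lower. The receptor Ptch1, also a target of the pathway, was dim on every array. Of 16 tested members 1 was higher and 3 lower. In lipid transport 7 of 21 tested genes were higher and 5 lower. Apoe, which carries lipids between cells, read 219, 9831 and 2826, 44.8-fold lower, and its neighbour Apoc1 was 32.2-fold lower, while the fatty acid binding protein Fabp3 read 676, 54.8 and 55.2, 12.3-fold higher.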
